A study of Mus musculus with 6 samples.

Results

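The 10 genes described here are transcription factors and cell-surface receptors of melanocyte identity and of melanoma dedifferentiation. The transcription factors are Mitf, Sox10, Pax3, Tfap2a, Lef1 and Sox9, and the receptors are Kit, Ednrb, Axl and Ngfr. They were chosen by gene symbol from a table of 22535 gene rows, and each symbol occurred in it once. RNA sequencing compared 3 libraries of B16-BL6 cells labelled sgNDUFS4 with 3 libraries of B16-BL6 cells labelled sgControl, both from standard culture without drug or other treatment named in the labels. B16-BL6 is a mouse melanoma line, selected from B16 for its invasiveness. Ndufs4 encodes a subunit of respiratory complex I, and the study asked which transcripts differ in Ndufs4-targeted cells, which it describes as immunogenic. The labels do not say whether either line is 1 clone or a pool of cells, how the guide was delivered, or whether the 3 libraries of a line are separate cultures. The p-values thus reflect only the spread among these libraries, possibly a technical one, and the guide cannot be told apart from any other difference between the lines.

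The libraries held 23910781 to 25947374 reads counted in genes for sgNDUFS4 and 20090607 to 23652793 for sgControl. Levels are in CPM, the reads of a gene scaled to all reads counted in that library, and 3 reads correspond to between 0.116 and 0.149 CPM in a library. Ndufs4 itself, the targeted gene, averaged 15.9 ± 0.927 CPM in sgNDUFS4 libraries and 53.9 ± 1.37 CPM in sgControl libraries (SD, n = 3 each). The melanocyte markers Pmel, Tyrp1, Dct, Mlana and Slc45a2 together summed to between 14298 and 15365 CPM in sgNDUFS4 libraries and between 15199 and 15723 CPM in sgControl libraries. The endothelial markers Pecam1, Cdh5, Kdr and Tek had no read in any library. The 5 keratinocyte markers summed to between 0.125 and 0.271 CPM in sgNDUFS4 libraries and to at most 0.180 CPM in sgControl libraries. Of the 5 fibroblast markers, Dcn and Lum had no read, and the list summed to between 41.4 and 46.1 CPM in sgNDUFS4 and between 41.8 and 44.1 CPM in sgControl, most of it Col1a2. Of the 4 leukocyte markers named once in the table, Cd3e was among those with no read, and the list summed to between 0.308 and 3.06 CPM in sgNDUFS4 and between 1.40 and 1.66 CPM in sgControl.

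Melanocytes arise from the neural crest, and MITF, a basic helix-loop-helix leucine zipper protein, is the factor that drives their pigment genes. MITF transcription in melanocytes is activated by SOX10, PAX3, LEF1 acting with β-catenin, and factors bound to a cyclic AMP response element, while TFAP2A works beside MITF at pigment genes. KIT and EDNRB carry the survival and migration signals of melanoblasts. In melanoma, AXL and the neurotrophin receptor NGFR mark dedifferentiated states, AXL most often where MITF is low, and SOX9 is often high where SOX10 is low.

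The promoter from which melanocytes transcribe Mitf is the most downstream of its start sites, and its 250 bases before the start are shown because the activators listed above act there. Capitals mark CTTTGA, a core of the site that LEF1 and its relatives bind, which began at position -205 from the start, and TGACGTCA, a cyclic AMP response element, which began at position -153. The stretch lies at chr6:97991533-97991782 on the plus strand of GRCm38.p6, and is taken from RefSeq.
Mitf, downstream start: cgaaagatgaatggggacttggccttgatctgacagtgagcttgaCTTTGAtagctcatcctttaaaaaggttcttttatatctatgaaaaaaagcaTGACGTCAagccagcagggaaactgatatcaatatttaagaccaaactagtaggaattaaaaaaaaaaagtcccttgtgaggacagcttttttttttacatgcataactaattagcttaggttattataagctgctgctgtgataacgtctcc
The other windows of Mitf held neither motif. Among 32851 promoter windows of the same length, searched on both strands, CTTTGA was found in 13.8% and TGACGTCA in 1.55%. The motifs do not overlap each other in the Mitf window. Both were chosen after this window had been looked at, and a match is a description of the letters and not of binding.

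MITF binds E-boxes, and the form CATGTG is typical of pigment gene promoters. Capitals mark CATGTG, or its reverse complement CACATG, in the promoters of the 3 enzymes that make melanin, which are shown because their levels are set beside Mitf further on. The stretches are from RefSeq on GRCm38.p6 and lie at chr7:87493513-87493762 on the minus strand for Tyr, chr4:80833963-80834212 on the plus strand for Tyrp1 and chr14:118052247-118052496 on the minus strand for Dct.
Tyr: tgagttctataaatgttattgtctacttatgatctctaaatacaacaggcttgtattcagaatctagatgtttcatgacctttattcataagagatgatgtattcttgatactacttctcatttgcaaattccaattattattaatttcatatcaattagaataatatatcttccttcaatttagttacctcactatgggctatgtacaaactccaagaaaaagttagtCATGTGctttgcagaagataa
Tyrp1: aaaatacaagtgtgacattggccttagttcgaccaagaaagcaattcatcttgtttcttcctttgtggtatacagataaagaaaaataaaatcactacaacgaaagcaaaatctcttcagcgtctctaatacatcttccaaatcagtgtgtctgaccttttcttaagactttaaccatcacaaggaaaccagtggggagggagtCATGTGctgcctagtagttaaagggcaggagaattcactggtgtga
Dct: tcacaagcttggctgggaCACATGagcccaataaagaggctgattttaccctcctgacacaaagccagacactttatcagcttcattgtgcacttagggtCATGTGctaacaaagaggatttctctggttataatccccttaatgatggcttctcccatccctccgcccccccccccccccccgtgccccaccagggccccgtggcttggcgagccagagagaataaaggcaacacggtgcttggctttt
The motif began at position -21 in Tyr, at -46 in Tyrp1 and at -232 and -150 in Dct. CATGTG was present in 12.3% of all 32851 windows, in 7 of 17 windows of 12 pigment genes with a RefSeq window, and in 0 of 14 windows of 7 of the 10 lineage genes. The related E-box CACGTG was present in 6.02% of all windows and in 1 of the 14 lineage windows. ACAAAG, a site for SOX proteins, was in 16.5% of all windows, in 7 of 17 pigment windows and in 1 of 14 lineage windows, and ACAATG, another, was in 10.7%, 2 of 17 and 1 of 14. Windows of the same gene can overlap and share a motif.

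Of the 10 lineage genes, 7 had a mean of at least 1 CPM and were tested, and Sox9, Ednrb and Ngfr were not. By limma, with p-values adjusted by Benjamini-Hochberg over all 11063 genes, Mitf, Tfap2a, Lef1 and Kit were higher in sgNDUFS4, where 31.8% of all genes tested were higher, and Tfap2a turned to lower once centred on neighbouring genes. Sox10 and Axl were lower, where 20.3% of all genes tested were lower, and Sox10 turned to higher once centred in the same way. Pax3 did not pass. The groups did not overlap for 6 of the 7, against 57.2% of all genes tested. Calls in either direction covered 52.0% of all genes tested, so being called is common in this comparison, and Lef1 entered the test only through its level in sgNDUFS4. The median absolute log2 fold change was 0.19 over the 7 genes and 0.21 over all genes. Of the calls over all genes, 61.1% were higher, and with TMM scaling, which moved the median of all genes to 0.00 from 0.06 on the log2 scale, 2756 genes were higher and 2850 lower, or 49.2% higher. The means differed 5.02-fold for Lef1, the 1 lineage gene tested that was called and past 2-fold, against 4.91% of all genes. In bulk RNA, fewer cells that express a gene and less of its RNA per cell cannot be told apart.

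**Figure D1:**
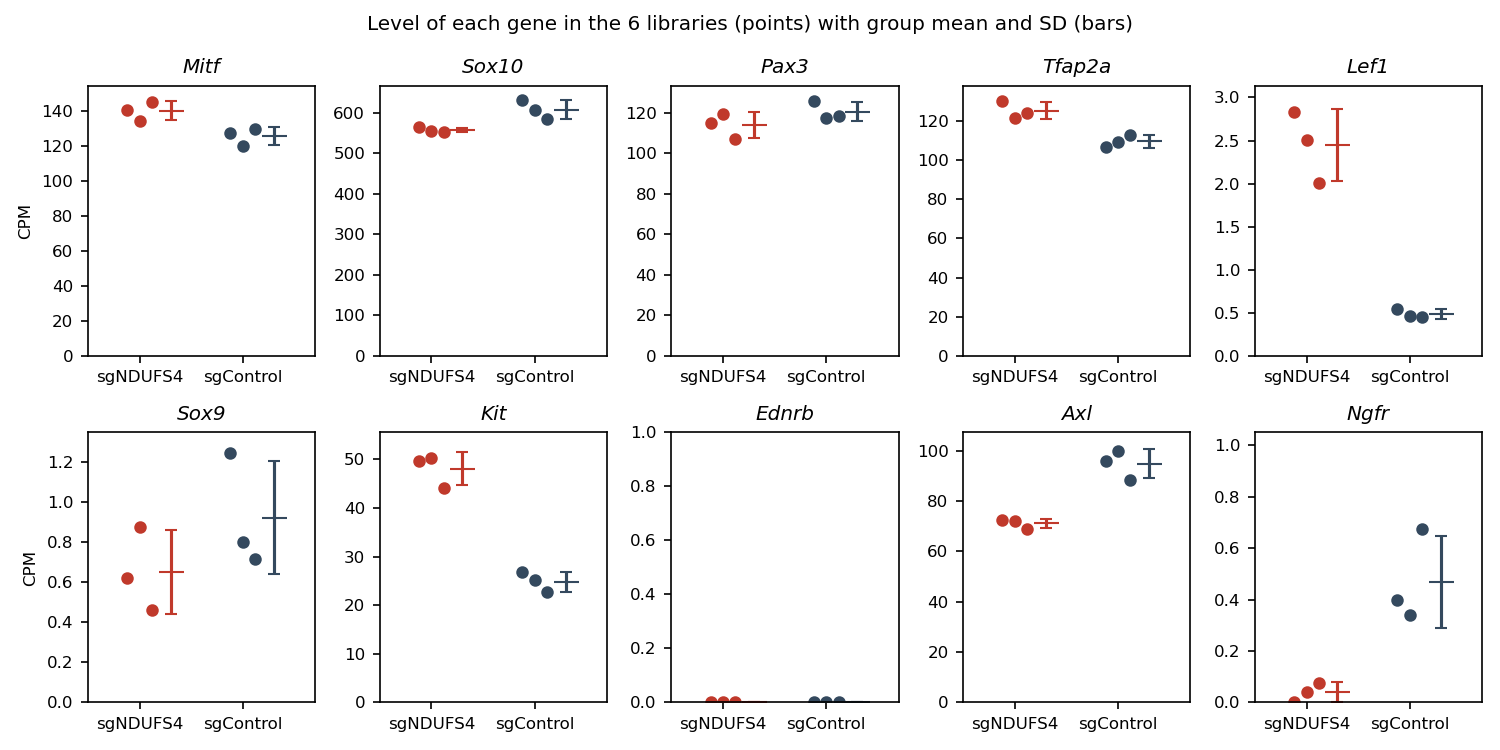
Level of each of the 10 lineage genes in CPM, with sgNDUFS4 libraries on the left and sgControl libraries on the right of each panel. Points are libraries and bars are the group mean with its SD (n = 3). The groups stand apart for Kit, Axl, Lef1, Mitf, Tfap2a, Sox10 and Ngfr, overlap for Pax3 and Sox9, and Ednrb is at 0.

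Mitf, the master regulator of the lineage, was at 141, 134 and 145 CPM in sgNDUFS4 libraries, against 127, 120.0 and 129.6 CPM in sgControl libraries. All 3 sgNDUFS4 libraries lay above all 3 sgControl libraries, by a small margin. The means were 140.0 ± 5.47 CPM in sgNDUFS4 and 126 ± 5.01 CPM in sgControl (SD, n = 3 each), a log2 fold change of 0.16 with a standard error of 0.0444 (limma adjusted p = 0.0047). This call depended on the scaling and the test. The difference was 0.10 with TMM scaling (adjusted p = 0.068), 0.10 with edgeR on recovered reads (adjusted p = 0.066) and 0.10 with DESeq2 (adjusted p = 0.083). It stayed at 0.16 without a mean-variance trend (limma adjusted p = 0.058). Mitf lies on chromosome 6 from 97807052 to 98021349 on the plus strand of GRCm38. The counts are per gene, so they do not separate the melanocyte form of Mitf from forms that start upstream.

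Sox10, the neural crest factor that melanocytes and glia keep, was the most abundant of the 10 genes. It was at 564, 555 and 553 CPM in sgNDUFS4 libraries, against 630.0, 607 and 584 CPM in sgControl libraries. Every sgNDUFS4 library was below every sgControl library, and the sgControl libraries were the more spread. The means were 557 ± 5.51 CPM in sgNDUFS4 and 607 ± 23.0 CPM in sgControl (SD, n = 3 each). Sox10 fell by 0.12 on the log2 scale, with a standard error of 0.0307 (limma adjusted p = 0.0016), and was at 0.10 once centred on neighbouring genes. The call was lost without a mean-variance trend (adjusted p = 0.077). The gene lies on chromosome 15 from 79154908 to 79165240 on the minus strand.

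Pax3, a paired-box factor that acts with SOX10 on the Mitf promoter, was at 115, 119.6 and 107 CPM in sgNDUFS4 libraries, against 126, 117.5 and 118.5 CPM in sgControl libraries. The second sgNDUFS4 library lay above 2 of the sgControl libraries, so the groups overlapped. The log2 fold change was -0.08 with a 95% interval of -0.18 to 0.02 (limma adjusted p = 0.15). Pax3 passed as lower with TMM scaling, at -0.14 (adjusted p = 0.017), and with edgeR on recovered reads at -0.14 (adjusted p = 0.016).

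Tfap2a, which encodes the AP-2α factor of neural crest and pigment cells, was at 130.0, 122 and 124 CPM in sgNDUFS4 libraries, against 106, 109 and 113 CPM in sgControl libraries. The 3 sgNDUFS4 libraries lay above the 3 sgControl libraries, without overlap. The means were 125 ± 4.33 CPM in sgNDUFS4 and 109.5 ± 3.20 CPM in sgControl (SD, n = 3 each), a log2 fold change of 0.19 with a standard error of 0.0446 (limma adjusted p = 0.00078), which turned to -0.18 once centred on neighbouring genes. Tfap2a lies on chromosome 13 from 40715302 to 40738376 on the minus strand. The antisense genes Gm47061, Gm26688 and Gm47067 overlap its exons and are not separate rows of the table, and the libraries did not keep the strand, so reads from either strand cannot be told apart.

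Lef1, the WNT-pathway factor that binds DNA with β-catenin, had the largest log2 fold change of the 7 genes tested. It was at 2.83, 2.51 and 2.004 CPM in sgNDUFS4 libraries, against 0.548, 0.465 and 0.449 CPM in sgControl libraries. The 3 sgNDUFS4 libraries lay far above the sgControl libraries, which were nearly equal to each other. These levels rest on 185 reads in sgNDUFS4 and 32 reads in sgControl, and the ratio after dividing by the group totals was 5.04, with an exact 95% interval of 3.45 to 7.59 that covers counting error only. The log2 fold change was 1.57 with a standard error of 0.271 (limma adjusted p = 2.7e-05), on a scale that adds 0.5 CPM and so understates the change of a gene this low. By edgeR without the filter on low values it was 2.26 (adjusted p = 1.2e-06). Lef1 lies on chromosome 3 from 131110471 to 131224356 on the plus strand, and the antisense gene Gm43352 overlaps its exons.

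Sox9, the SOX factor of cartilage and of SOX10-poor melanoma, was at 0.620, 0.878 and 0.462 CPM in sgNDUFS4 libraries, against 1.24, 0.803 and 0.718 CPM in sgControl libraries. The groups overlapped. Sox9 rested on 49 reads in sgNDUFS4 and 60 reads in sgControl, a ratio of 0.712 with an exact 95% interval of 0.478 to 1.06. By edgeR without the filter the log2 fold change was -0.55 (adjusted p = 0.47). The interval holds both a lower and an equal level of Sox9, so no direction is given.

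Among the receptors, Kit, the receptor tyrosine kinase for stem cell factor, differed most by the test. It was at 49.7, 50.3 and 44.1 CPM in sgNDUFS4 libraries, against 26.7, 25.2 and 22.6 CPM in sgControl libraries. Every sgNDUFS4 library was well above every sgControl library. The means were 48.0 ± 3.40 CPM in sgNDUFS4 and 24.8 ± 2.07 CPM in sgControl (SD, n = 3 each), which is 1.93-fold. Kit rose by 0.94 on the log2 scale, with a standard error of 0.0774 (limma adjusted p = 1.6e-10). Across all alternatives tried its log2 fold change lay between 0.87 and 1.00, and each passed. Kit lies on chromosome 5 from 75574916 to 75656722 on the plus strand.

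Axl, a receptor tyrosine kinase of the TAM family (Tyro3, Axl and Mertk) and a marker of dedifferentiated melanoma, moved the other way. It was at 72.5, 71.9 and 68.9 CPM in sgNDUFS4 libraries, against 96.0, 99.8 and 88.4 CPM in sgControl libraries. All sgNDUFS4 libraries lay below all sgControl libraries and were close together. The means were 71.1 ± 1.89 CPM in sgNDUFS4 and 94.7 ± 5.77 CPM in sgControl (SD, n = 3 each), which is 0.751-fold. Axl fell by 0.41 on the log2 scale, with a standard error of 0.0525 (limma adjusted p = 3.6e-07), and it passed as lower under every alternative, between -0.49 and -0.37. Axl lies on chromosome 7 from 25757273 to 25788705 on the minus strand.

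Ngfr, the low-affinity neurotrophin receptor, was near the limit of detection. It was at 0, 0.0418 and 0.0771 CPM in sgNDUFS4 libraries, against 0.398, 0.338 and 0.673 CPM in sgControl libraries. The sgNDUFS4 libraries held 3 reads of Ngfr in all and the sgControl libraries 31, and the groups did not overlap. The ratio after dividing by the group totals was 0.0844, with an exact 95% interval of 0.0165 to 0.271 that covers counting error only. Ngfr was under the filter of 1 CPM. By edgeR without the filter, an alternative chosen after seeing the data, it was lower (adjusted p = 0.02), where 22.8% of 13513 genes were lower and 21.1% higher. Ngfr lies on chromosome 11 from 95568818 to 95587735 on the minus strand. Ednrb, the endothelin B receptor, lies on chromosome 14 from 103814625 to 103844402 and had 0 reads in all 6 libraries, which allows a level of up to 0.116 to 0.149 CPM in a library.

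Levels of different genes were compared per kilobase of annotated exons. Sox10 was the highest, at 181 to 185 CPM per kb in sgNDUFS4 libraries and 191 to 206 in sgControl libraries. Tfap2a followed at 24.8 to 26.5 CPM per kb in sgNDUFS4 and 21.7 to 23.0 in sgControl, and Mitf at 21.7 to 23.4 in sgNDUFS4 and 19.4 to 20.9 in sgControl. Sox10 thus stood well above every other lineage gene. Pax3 was at 17.3 to 19.3 CPM per kb in sgNDUFS4 and 19.0 to 20.4 in sgControl, and Axl at 13.7 to 14.4 in sgNDUFS4 and 17.6 to 19.8 in sgControl. Kit was at 4.95 to 5.64 CPM per kb in sgNDUFS4 and 2.54 to 3.00 in sgControl. Lef1, Sox9 and Ngfr lay below 1 CPM per kb in all libraries. In sgNDUFS4 libraries no neighbours in this order overlapped. In sgControl libraries Mitf and Pax3 overlapped, as did Pax3 and Axl, and Sox9 and Ngfr. Lef1 was above Sox9 in sgNDUFS4, at 0.228 to 0.322 against 0.112 to 0.212 CPM per kb, and below Sox9 in sgControl, at 0.0511 to 0.0623 against 0.174 to 0.301 CPM per kb.

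**Figure D2:**
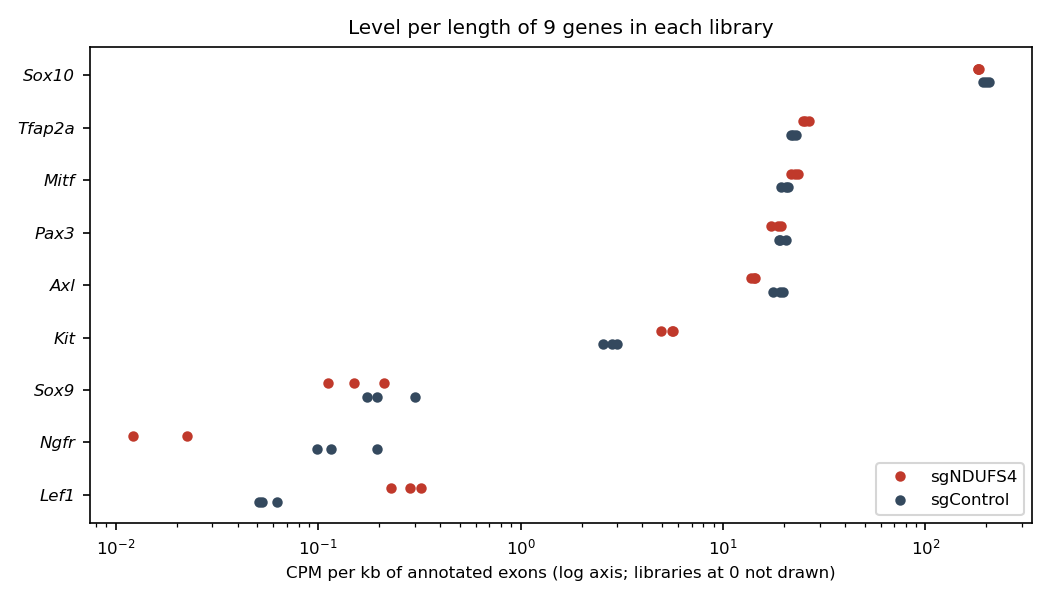
Level per kilobase of annotated exons in each library, on a log axis, for the 9 lineage genes with reads, in sgNDUFS4 and sgControl libraries. Sox10 stands at 181 CPM per kb or above in all libraries, 5 genes lie between about 2.54 and 26.5, and Lef1, Sox9 and Ngfr lie lowest. Libraries at 0 are not drawn.

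Within each library, the balance between lineage genes was taken as a difference of log2(CPM + 0.5). Kit minus Axl was -0.56 ± 0.0664 in sgNDUFS4 libraries and -1.91 ± 0.0760 in sgControl libraries (SD, n = 3 each). Axl minus Mitf was -0.97 ± 0.0878 in sgNDUFS4 libraries and -0.41 ± 0.142 in sgControl libraries. Both differences moved by more than the spread between libraries. They are not per length, so their sign does not rank the genes. Per kb, Axl at 17.6 to 19.8 and Mitf at 19.4 to 20.9 CPM overlapped in sgControl libraries. Mitf minus Sox10 was -1.99 ± 0.0590 in sgNDUFS4 and -2.27 ± 0.0883 in sgControl. These differences restate the levels above and were not tested.

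Differences in this comparison were shared by stretches of neighbouring genes on some chromosomes. Each of the 7 lineage genes tested was thus set beside the 50 nearest genes tested. Sox9, Ednrb and Ngfr were under the filter and were not set beside neighbours. The neighbours of Mitf had a median log2 fold change of 0.14, with 24 of 50 higher and 5 lower, and Mitf at 0.16 was above 52% of them. After centring on the neighbours Mitf was at 0.02 (limma adjusted p = 0.74). The small difference of Mitf was thus about that of its neighbours. The neighbours of Sox10 had a median of -0.20, with 1 of 50 higher and 25 lower, and after centring Sox10 was at 0.10, higher in sgNDUFS4 (adjusted p = 0.027). The neighbours of Tfap2a had a median of 0.34, with 32 of 50 higher and 1 lower, and after centring Tfap2a was at -0.18, lower in sgNDUFS4 (adjusted p = 0.004). The directions of Sox10 and Tfap2a therefore turned round when set against their neighbours.

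Kit, Axl and Lef1 differed from the genes around them. The neighbours of Kit had a median of 0.00, Kit was above 96% of them, and after centring it was at 0.90 (limma adjusted p = 4.4e-10). The neighbours of Axl had a median of 0.07, 6% of them lay below Axl, and after centring it was at -0.49 (adjusted p = 2.7e-08). Lef1 was above all 50 of its neighbours, whose median was 0.12, and was at 1.46 after centring (adjusted p = 9.5e-05). Lef1 entered this test only through its level in sgNDUFS4, so its centred value is not separate support. The neighbours of Pax3 had a median of -0.09, and Pax3 was at -0.02 after centring (adjusted p = 0.75).

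**Figure D3:**
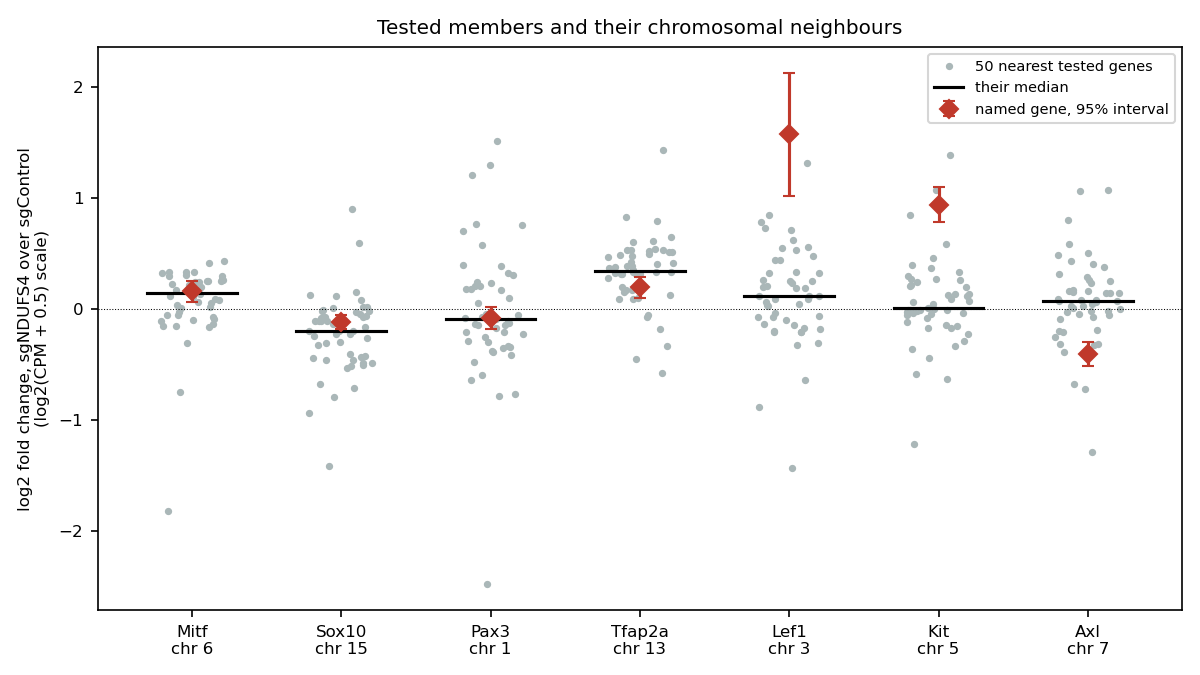
Log2 fold change, sgNDUFS4 over sgControl, on the log2(CPM + 0.5) scale, of the 7 lineage genes tested (diamonds with 95% intervals) and of their 50 nearest tested genes (grey points, with the median as a black line). Kit, Axl and Lef1 stand apart from their neighbours, Mitf and Pax3 lie near the median, Sox10 lies above it and Tfap2a below it.

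Of 17 listed ligands and partner receptors of the 4 receptors, 10 had no read in any library, where 9022 of all 22535 rows had none. Among these 10 were the endothelins Edn1, Edn2 and Edn3 and the neurotrophin receptors Ntrk2 and Ntrk3. Of the 4 listed genes tested, 2 were higher, none was lower and 2 did not pass. Over all genes tested, 31.8% were higher and 20.3% lower. Pros1, the protein S ligand of the TAM receptors, averaged 83.4 ± 3.79 CPM in sgNDUFS4 and 51.2 ± 4.19 CPM in sgControl (SD, n = 3 each), or 0.70 higher on the log2 scale (limma adjusted p = 3.9e-10), and 0.45 higher once centred on its neighbours (adjusted p = 1.1e-06). Sort1, the sortilin partner of NGFR, averaged 114 ± 3.11 CPM in sgNDUFS4 and 102 ± 1.17 CPM in sgControl, or 0.16 higher on the log2 scale (limma adjusted p = 0.0036) that did not pass with TMM scaling (adjusted p = 0.057) and was at -0.09 once centred on its neighbours. Tyro3, another TAM receptor, was at 14.5 ± 0.804 CPM in sgNDUFS4 and 15.5 ± 1.16 CPM in sgControl, with a log2 fold change of -0.10 and a 95% interval of -0.31 to 0.12 (adjusted p = 0.47).

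Kitl, stem cell factor and the ligand of Kit, was under the filter, and is named after its values were seen. It was at 1.36, 1.76 and 1.00 CPM in sgNDUFS4 libraries, against 0.348, 0.254 and 0.0898 CPM in sgControl libraries. All sgNDUFS4 libraries lay above all sgControl libraries. These are 103 reads in sgNDUFS4 and 15 in sgControl, a ratio of 5.99 with an exact 95% interval of 3.47 to 11.1 that covers counting error only. By edgeR without the filter Kitl was higher (adjusted p = 0.0003), where 21.1% of 13513 genes were higher. Kitl was not set beside its neighbours.

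Of 14 relatives and DNA-binding partners of the transcription factors, 7 were tested, of which 3 were higher, 3 lower and 1 missed the threshold. Their median was -0.06 on the log2 scale, against 0.06 over all genes, of which 31.8% were higher and 20.3% lower. Tfe3, a MITF relative that binds the same E-boxes, was at 27.7, 26.9 and 28.7 CPM in sgNDUFS4 libraries, against 56.0, 57.2 and 53.4 CPM in sgControl libraries. The groups lay far apart, and Tfe3 fell by 0.99 on the log2 scale (limma adjusted p = 3e-12). Tfe3 lies on chromosome X among neighbours with a median of -0.74, of which 45 of 50 were lower, and after centring it was at -0.25 (adjusted p = 0.0046). Tfeb, the other relative tested, fell by 0.30 (adjusted p = 0.0082). Sox6, a SOXD factor of the melanocyte lineage, fell by 0.45 (adjusted p = 5.5e-05). Tcf7l1, a relative of LEF1, was at 87.8 ± 3.23 CPM in sgNDUFS4 and 72.6 ± 0.691 CPM in sgControl, and rose by 0.27 (adjusted p = 5.6e-05), or by 0.15 once centred on its neighbours (adjusted p = 0.021). Tcf7l2, another, had a log2 fold change of -0.06 (adjusted p = 0.61). The relatives called higher numbered 1 with TMM scaling, without a mean-variance trend, or without the first sgNDUFS4 library. They also numbered 1 by edgeR, by DESeq2 and once centred on neighbours.

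The pigment genes that MITF activates lay on both sides of 0. Of 18 listed, all were tested, and 5 were higher, 9 lower and 4 missed the threshold, where 31.8% of all genes tested were higher and 20.3% lower. Their median was -0.17 on the log2 scale, against 0.06 over all genes. The list was drawn up with earlier results of these data known. Oca2, named after its values were seen, is among the 9 lower and entered the test only through its level in sgControl. With a filter of 5 CPM, 17 were tested and 8 were lower. Tyr, tyrosinase, which starts melanin synthesis, was at 3.60, 2.89 and 2.81 CPM in sgNDUFS4 libraries, against 30.9, 31.9 and 34.0 CPM in sgControl libraries. Tyr was thus about 0.0961-fold in sgNDUFS4, and the groups lay far apart. Tyr fell by 3.19 on the log2 scale (limma adjusted p = 5.3e-17). Its difference from Mitf within a library, Tyr minus Mitf, was -5.29 ± 0.178 in sgNDUFS4 and -1.95 ± 0.0699 in sgControl on the log2 scale (SD, n = 3 each).

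Tyrp1 and Dct, the other enzymes whose promoters are printed above, differed far less than Tyr. Tyrp1 averaged 4869 ± 215 CPM in sgNDUFS4 and 5408 ± 51.5 CPM in sgControl, and fell by 0.15 on the log2 scale (limma adjusted p = 2e-05). Dct averaged 3331 ± 98.6 CPM in sgNDUFS4 and 4129 ± 109 CPM in sgControl, and fell by 0.31 (adjusted p = 1.2e-10), or by 0.50 once centred on its neighbours (adjusted p = 3.5e-12). All 3 genes have CATGTG in the window shown, and whether the motif bears on their levels was not tested. Mlph, melanophilin of melanosome transport, fell by 1.11 (adjusted p = 4.5e-19), and Gpnmb, a melanosome glycoprotein, by 0.55 (adjusted p = 3.3e-16). Mlana fell by 0.42 (adjusted p = 2.3e-11). Pmel, the protein of melanosome fibrils, went against these, as 1 of the 5 listed pigment genes that were higher. It averaged 5507 ± 265 CPM in sgNDUFS4 and 4358 ± 84.4 CPM in sgControl, a rise of 0.34 (limma adjusted p = 1.1e-10). Slc45a2, a melanosome transporter, had a log2 fold change of -0.06 (adjusted p = 0.16).

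Of 13 MITF targets in proliferation, survival and metabolism, 9 were tested, of which 3 were higher, 4 lower and 2 missed the threshold. Their median was -0.08 on the log2 scale, against 0.06 over all genes. Met, the receptor of hepatocyte growth factor, was at 62.3, 62.2 and 57.8 CPM in sgNDUFS4 libraries, against 25.5, 27.6 and 26.3 CPM in sgControl libraries. The groups lay far apart, and Met rose by 1.18 on the log2 scale (limma adjusted p = 7.6e-14). Cdkn1a, the cell cycle inhibitor p21, rose by 0.47 (adjusted p = 1.3e-10). Tbx2, a T-box repressor, averaged 50.4 ± 4.25 CPM in sgNDUFS4 and 91.2 ± 1.41 CPM in sgControl, and fell by 0.85 (adjusted p = 4e-12). Scd1, a fatty acid desaturase, fell by 0.87 (adjusted p = 2.2e-09). Cdk2, which MITF keeps expressed in melanoma, had a log2 fold change of -0.08 (adjusted p = 0.089). On chromosome 10 Cdk2 ends at 128705031 on the minus strand, and the far more abundant Pmel starts at 128704195 on the plus strand. The libraries did not keep the strand, and whether Pmel reads affect the Cdk2 value was not tested. Calls in both directions are also the pattern over all genes, of which 31.8% were higher and 20.3% lower.

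**Figure D4:**
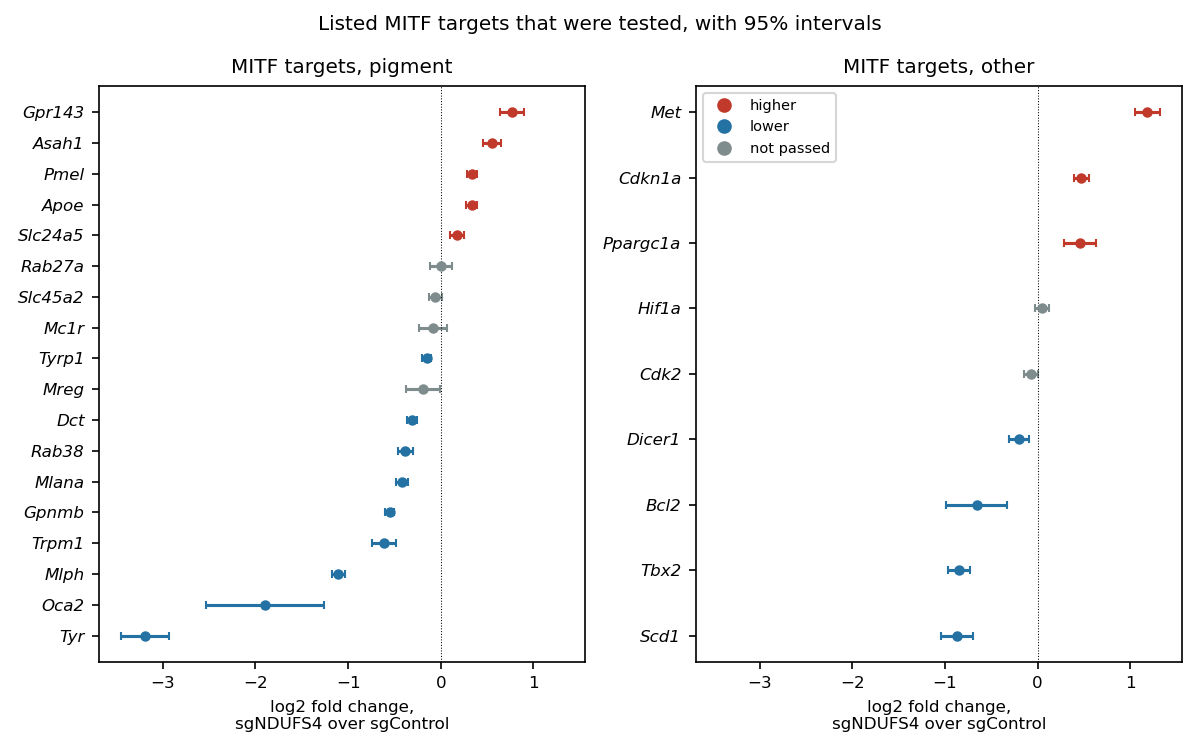
Log2 fold change, sgNDUFS4 over sgControl, with 95% intervals, of the tested targets of MITF in pigment cells and of MITF elsewhere. Colours mark genes that were higher, lower or did not pass. Tyr lies lowest at -3.19 and Met highest at 1.18, and the pigment targets fall on both sides of 0.

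Of 12 SOX10 targets in neural crest and glia, of which Mitf and Ednrb are themselves lineage genes, 7 were tested, of which 2 were higher, 3 lower and 2 missed the threshold. Their median was 0.08 on the log2 scale, against 0.06 over all genes, of which 31.8% were higher and 20.3% lower. Without the third sgControl library 4 were higher. With TMM scaling, without a mean-variance trend, by edgeR, by DESeq2 or once centred on neighbours, 1 was higher. Erbb3, the neuregulin receptor, averaged 164 ± 7.02 CPM in sgNDUFS4 and 197 ± 7.30 CPM in sgControl (SD, n = 3 each), and fell by 0.26 on the log2 scale (limma adjusted p = 7.8e-06). Mbp, myelin basic protein, had a log2 fold change of 0.08 (adjusted p = 0.26), and passed as higher without the second sgNDUFS4 library (adjusted p = 0.043) or without the third sgControl library (adjusted p = 0.019). The 5 Schwann cell and glial markers, some of which, such as Mbp, are also in this list, summed to between 742 and 933 CPM in sgNDUFS4 and between 706 and 853 CPM in sgControl, with 1 higher, 2 lower and 2 not passed, and their part in these values was not tested.

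Of 25 neural crest-like and undifferentiated melanoma genes, which include Axl and Ngfr, 8 had no read in any library. Among these 8 were Egfr, Wnt5a and Nrg1, and of all 22535 rows, 9022 had no read. Of the 25 genes, 10 were tested. Of those tested, 5 were higher, 1 was lower and 4 missed the threshold, where 31.8% of all genes tested were higher and 20.3% lower. Without the filter on low values, 6 were higher and 3 lower by limma, and 5 higher and 4 lower by edgeR. Their median was 0.32 on the log2 scale, against 0.06 over all genes. Axl was the 1 tested that was lower. With centring on neighbours, 8 of the list were tested, of which 3 were higher and 1 lower. Cyr61, a YAP target, averaged 88.7 ± 2.23 CPM in sgNDUFS4 and 58.8 ± 5.61 CPM in sgControl (SD, n = 3 each), and rose by 0.59 on the log2 scale (limma adjusted p = 6.2e-09), and Pdgfrb, a growth factor receptor, by 0.65 (adjusted p = 4.8e-07). Jun had a log2 fold change of 0.00 (adjusted p = 1), turning to -0.06 with TMM scaling.

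Genes were also ranked by how closely their profile over the 6 libraries followed that of Mitf or Sox10, as the Euclidean distance between log2 values centred on the sgControl mean, among 9332 genes. Nearest to Mitf were Ddr2 at a distance of 0.0285, Usp19 at 0.0333 and Phf12 at 0.0368. Nearest to Sox10 were Ctbp1 at 0.0207, Rrp9 at 0.0253 and Noc3l at 0.0272. The log2 fold changes of these genes lay between 0.15 and 0.16 for Mitf and between -0.13 and -0.11 for Sox10, and with 6 libraries in 2 groups many genes can lie this close.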

How the data were processed

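Polyadenylated RNA was prepared with TRIzol and sequenced as paired ends without strand, per the labels' protocols. The submitters' processing notes name HISAT2 and GRCm38, and no counting tool is named in the sources used here. The deposited CPM values were scaled by the authors to each library. In every library they were multiples of its smallest nonzero value (99.98 to 100.0% within 0.01), so reads could be recovered, to a depth of 20090607 to 25947374 per library. Rows at 0 in every library numbered 9022.

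The test was limma 3.58.1 (R 4.3.3), two-sided, with a mean-variance trend on log2(CPM + 0.5) after leaving out genes whose mean was under 1 CPM, and Benjamini-Hochberg adjustment over 11063 genes at 0.05. This log2 scale understates low genes. Also tried were pseudocounts of 0.1 and 1, no filter and one of 5 CPM, TMM and quantile scaling, no trend, the replicate number as a block, leaving out each library, edgeR 4.0.16 and DESeq2 1.42.0 on recovered reads, and centring on 50 neighbouring genes. edgeR called 2723 genes higher and 2860 lower.

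Positions and exon lengths came from GENCODE M21 (GRCm38), and promoters from RefSeq (GRCm38.p6), of which the 250 bases before each start were used. Members and lists were chosen with earlier results of these data known. The genes named are the 10 members, Ndufs4, Tyr, Pmel, Tyrp1, Dct and Mlana, up to 4 called genes with the smallest p and 1 uncalled gene with the highest mean per list, and the 3 nearest profiles. Itgam occurs more than once in the table and was left out. Some genes that this rule takes are not reported here.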

Additional observations from a re-analysis of the deposited data

How the results depend on the processing

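The calls of Kit, Lef1 and Axl kept their direction and passed under all alternatives that gave a value. In the fits with the filter of 1 CPM, Lef1 entered only through its level in sgNDUFS4. Leaving out each library in turn kept 4 lineage genes higher and 2 lower. Over 40 named genes and 716 other fits, 670 kept direction and side of the threshold, 11 no longer passed, 16 newly passed and 19 reversed. Genes called higher numbered 2332 with regional centring, against 3514. Lineage genes called lower numbered 1 without a mean-variance trend and 4 with edgeR on recovered reads without the filter, where Pax3 and Ngfr were added. Regional centring reversed Sox10 to 0.10, Tfap2a to -0.18, Sort1 to -0.086, Mbp to -0.042 and Col1a2 to -0.18. The log2 fold change of Jun, 0.00 by limma, was -0.058 with TMM scaling, -0.066 with quantile normalization, -0.072 with edgeR, -0.073 with DESeq2 and -0.071 with edgeR without the filter. Adgre1 was at 0.0052 with edgeR, 0.0046 with DESeq2 and 0.0056 with edgeR without the filter, against -0.10 by limma. With a library left out, Tcf7l2 ranged from -0.096 to 0.0032, Mbp from -0.019 to 0.16, Jun from -0.14 to 0.10 and Adgre1 from -0.50 to 0.38. The cause was not tested for any of these.

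Deviations of libraries with the same replicate number correlated at 0.0559, 0.0121 and 0.0972, and the second sgNDUFS4 library correlated best with the first sgControl library, so the numbers were not taken to pair the samples. With the replicate number as a block, 3632 genes were higher and 2309 lower, with 4 lineage genes higher and 2 lower, the log2 fold change of Mbp passed as higher (limma adjusted p = 0.0076), and 3 of the SOX10 targets were higher, against 2 without the block. Depth limits Ednrb, Ngfr and Sox9, which lie near or under 1 CPM.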

Other observations

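Several low genes of the neural crest-like and ligand lists, named after their values were seen, lay under the filter of 1 CPM. Aqp1, a water channel, had 15, 30 and 20 reads in sgNDUFS4 libraries, against 0, 0 and 1 in sgControl libraries (edgeR without the filter, adjusted p = 0.00014). Twist1, a mesenchymal transcription factor, had 1, 0 and 0 reads in sgNDUFS4 libraries, against 8, 14 and 3 in sgControl libraries (edgeR adjusted p = 0.015). Sox2, a factor of neural progenitors, had no read in sgNDUFS4 libraries, against 9, 10 and 0 in sgControl libraries (edgeR adjusted p = 0.013), and 1 sgControl library was thus also at 0. Ntf5, the neurotrophin-4 ligand, had 9, 17 and 10 reads in sgNDUFS4 libraries, against 1, 0 and 3 in sgControl libraries (edgeR adjusted p = 0.047). Aqp1, Twist1 and Sox2 are in the same list as Axl and Ngfr, of which edgeR without the filter called 5 higher and 4 lower, where it called 21.1% of all 13513 genes higher and 22.8% lower.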
